A study of Mus musculus with 12 samples.

Results

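Of the 12 libraries of the series, the 6 from the C57Bl/6j strain were compared, 3 from En1 hemizygous mice (C57-En1+/-) against 3 from wild type mice (C57 WT), across all genes. Each library was made from the laser-microdissected substantia nigra pars compacta of 1 male mouse, 1 week old, and the 6 were chosen by their strain and genotype labels alone. In the hemizygous mice 1 En1 allele carries an insertion of LacZ, and the line was made by repeated backcrossing of OF1-En1+/- mice to C57. Both groups are therefore on the same strain and differ in the En1 allele, which is missing or disrupted in every cell and at every age. The other 6 libraries, from OF1 WT and OF1-En1+/- mice, entered the fit to estimate the spread between mice. They also entered the scaling of the libraries and the filter on low counts, and the genotypes were set side by side across strains where stated.

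Engrailed-1 is a homeodomain transcription factor of the midbrain and anterior hindbrain that is needed for the formation and upkeep of dopaminergic neurons. These neurons make dopamine with tyrosine hydroxylase (Th), retake it with the dopamine transporter (Slc6a3), and are the cells lost in Parkinson disease. The pars compacta lies beside the GABAergic pars reticulata, below the red and oculomotor nuclei and close to the subthalamic nucleus and hypothalamus, so a dissected piece can hold RNA of several neuron types. In bulk tissue, fewer cells of a type and less RNA per cell cannot be told apart.

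Values are normalized counts, that is estimated reads per gene scaled for library size and composition, and are always given in the order C5710, C572S and C5743 for C57 WT and C5713, C572 and C575 for C57-En1+/-, the names of the 6 mice. The C57 WT libraries held 61433970 to 168741283 estimated reads and the C57-En1+/- libraries 20030280 to 37754338. The groups did not overlap in depth, so depth and genotype cannot be told apart, although the sizes were scaled. The share of reads from the mitochondrial genome was 2.33, 3.03 and 2.47% in C57 WT and 4.94, 5.50 and 3.85% in C57-En1+/- mice. En1 itself, on chromosome 1 of GRCm39 from 120530108 to 120535721, had 0.871, 1071 and 11.7 in C57 WT and 0, 9.41 and 0 in C57-En1+/-, and En2 had 0, 125 and 0 against 0, 8.36 and 0. Both genes were high in C572S alone, so they give no check of the genotype labels. Xist was at 1330 in C572 and at most 6.39 in the other 5, and the Y-linked Ddx3y and Eif2s3y were at 0 in C572, where the labels give a male. Kdm5d and Uty were at 58.5 and 2.09 in C572 and at no less than 292 and 113 in the other 5. C572 therefore does not match its labelled sex, and values without it are given for the lists and genes that it moves most.

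Libraries of the same genotype were no more alike than libraries of different genotypes. Over the 18017 tested genes, Pearson's r of log2 values was 0.903 to 0.931 within C57 WT, 0.877 to 0.901 within C57-En1+/- and 0.880 to 0.931 between them, as a description across genes of shared depth and tissue. In C572S, a C57 WT mouse, the genes furthest above the next library were those of dopaminergic neurons. Th had 663, 121821 and 1447 in C57 WT and 33.6, 156 and 293 in C57-En1+/- mice. The nicotinic receptor subunits Chrna6 and Chrnb3 had 49823 and 10271 in C572S, and the next library had 367 and 67.7. The transcription factor Pitx3 stood at 2240 there and at most 22.6 elsewhere. All 3 hemizygous mice lay below the wild type mice for Th, and within C57 WT the values differed far more than between C5710 and any hemizygous mouse. The defining markers of the labelled tissue were thus high in 1 of the 6 libraries and low in the other 5.

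C5710, also C57 WT, held RNA of hypothalamic and ependymal cells. Six6 and Nr5a1, transcription factors of the hypothalamus and its ventromedial nucleus, had 1163 and 827 in C5710 and 0 in the other 5. Fezf1 had 2569 and was at most 6.00 elsewhere, and Avp, the gene of vasopressin, had 1501 with 29.3 in the next library. The ependymal gene Foxj1 had 237 in C5710 and at most 16.3 in the others, and Pomc, the precursor of melanocortins, 3550 against at most 157. C5743 stood apart less, with Barhl2, a subthalamic transcription factor, at 493 and 78.3 in the next library, and with Tac1, the precursor of substance P, at 13535 against 3490.

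Among C57-En1+/- mice, C572 held the RNA of brainstem motor and serotonergic neurons. Tbx20, a transcription factor of cranial motor neurons, had 566 in C572 and at most 0.206 in the other 5. Chat, the enzyme that makes acetylcholine, had 6.10, 43.1 and 40.3 in C57 WT and 0, 4093 and 6.86 in C57-En1+/-, and Calcb, a calcitonin gene-related peptide, had 8877 in C572 with 10.3 in the next library. Tph2 and Slc6a4, of serotonin synthesis and reuptake, had 7482 and 2123 there and at most 76.2 and 21.4 elsewhere (both were chosen after their values were seen). In C575 the calcium buffer Pvalb stood at 3321 with 172 in the next library, and Gad1, which makes GABA, at 46911 with 18160 next. C5713 had no gene at 4 times the next library, and Sp8, the highest by that ratio, had 599 against 164, but it had the most genes at least 4 times below every other library. The number of protein-coding genes at 4 times or more the next library was 49 in C5710, 57 in C572S, 3 in C5743, 0 in C5713, 112 in C572 and 24 in C575, of 13177 with a mean of at least 50. At least 4 times below every other library were 15, 157, 80, 183, 130 and 44 genes in the same order.

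**Figure D1:**
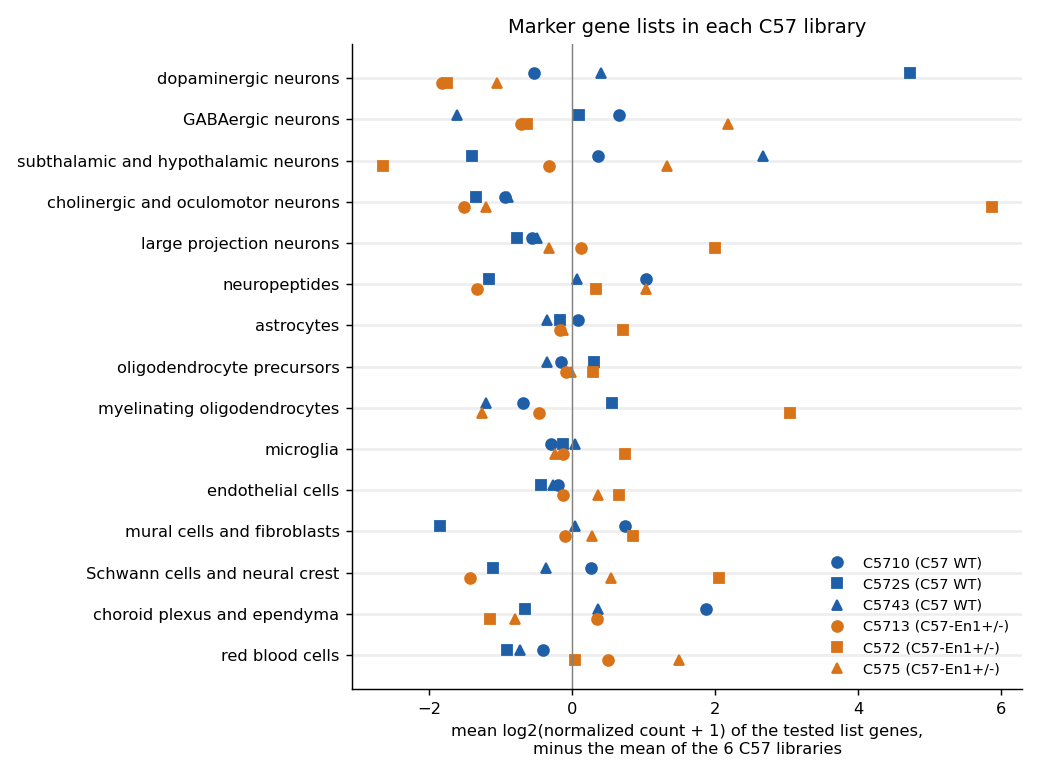
Mean log2(normalized count + 1) of the tested genes of 15 marker lists in each of the 6 C57 libraries, minus the mean of the 6; blue symbols are C57 WT and orange symbols C57-En1+/- mice. C572S stands apart for dopaminergic genes and C572 for cholinergic, large projection neuron and myelin genes. The 3 C57-En1+/- libraries lie above the 3 C57 WT libraries for large projection neuron, endothelial and red blood cell genes.

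Summed over the marker lists, the same mice stood apart. For the 20 dopaminergic genes the median of the log2 fold change, always C57-En1+/- over C57 WT, was -3.61, and -1.09 without C572S. None of the 20 had an estimate above 0, and for 4 the 3 hemizygous mice lay below the 3 wild type mice, where 8.08% of all tested genes did. The 7 tested cholinergic and oculomotor genes had a median of 5.51, which was -0.07 without C572. For the 19 myelin genes the median was 1.93 and -0.45 without C572, and for the 15 large projection neuron genes 1.18 and 0.30. Over all 18017 tested genes the median was -0.05. GABAergic genes (13 tested, median 0.88) and subthalamic and hypothalamic genes (15 tested, median -1.07) varied within the groups. They had 0 and 0 genes higher, and 1 and 0 lower, in all 3 mice, where all tested genes had 6.20% higher and 8.08% lower.

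The comparison of the genotypes asked which genes depend on the dose of En1 on the C57 background. No gene passed an adjusted p of 0.05 by edgeR's quasi-likelihood test (0 higher and 0 lower of 18017, 0% in either direction), and the smallest adjusted p was 0.550. At an unadjusted p under 0.05 there were 748 higher (4.15%) and 796 lower (4.42%). Limma voom also called 0 (1436 genes had an unadjusted p under 0.05), whereas DESeq2 called 49 higher (0.272%) and 25 lower (0.139%). In 1117 genes (6.20%) all 3 C57-En1+/- mice lay above all 3 C57 WT mice, and in 1456 (8.08%) all 3 lay below. With 3 mice against 3, an exact permutation test of a single gene cannot give a two-sided p below 0.10. The 15 higher and 15 lower protein-coding genes with the smallest p among those that did not overlap, with a mean of at least 50, are described next. They were chosen by their values, so their separation is a description, and each had an edgeR adjusted p of 0.550. DESeq2 called 29 of the 30 with all libraries, 0 of the 30 without C572, and 12 of the 30 (4 higher and 8 lower) with the trend of each library with transcript length, described further on, removed. The loss was not particular to C572. Over 32 genes that include these 30, DESeq2 called 1 without C5743, 10 without C572S, 10 without C5710, 12 without C5713 and 31 without C575.

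**Figure D2:**
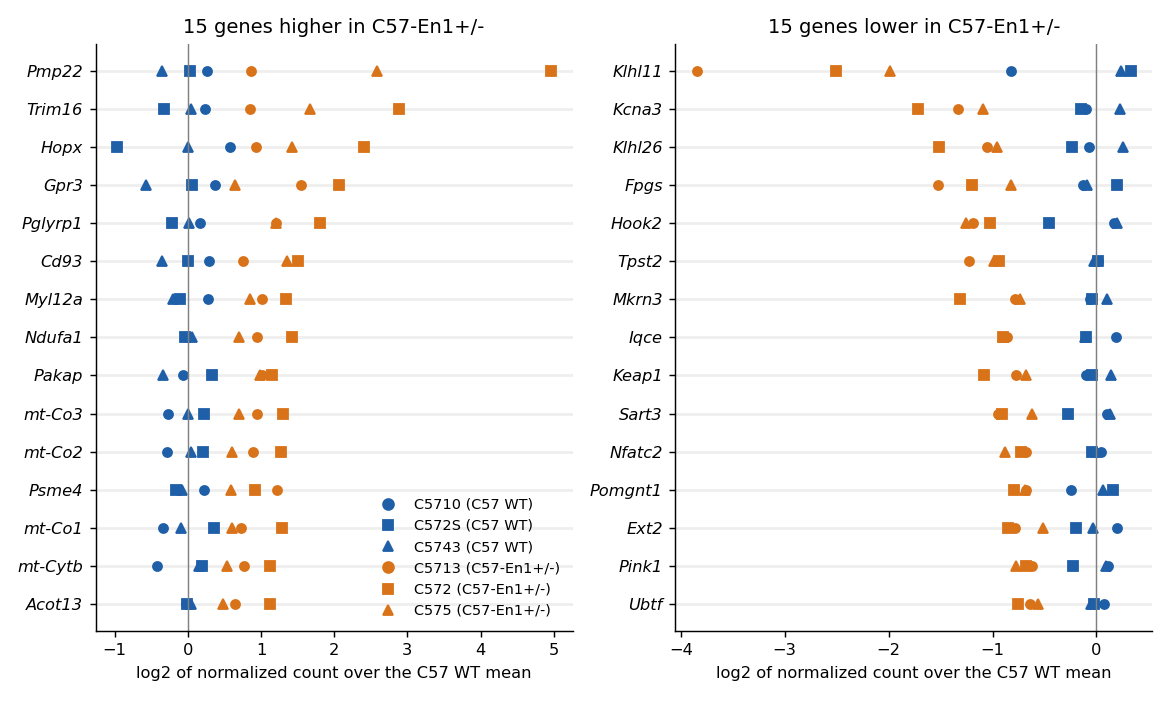
Normalized count of each of the 6 mice over the C57 WT mean, on a log2 scale, for the 15 higher and the 15 lower protein-coding genes with the smallest p among those whose groups did not overlap. Orange C57-En1+/- symbols lie wholly to the right of blue C57 WT symbols on the left panel and wholly to the left on the right panel, as the choice of genes fixes.

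Respiratory chain genes of the mitochondrial genome led the higher genes. mt-Co3, a core subunit of cytochrome c oxidase, had 140419, 197382 and 170276 in C57 WT and 326574, 416262 and 275265 in C57-En1+/- mice, a log2 fold change of 1.00 ± 0.20 (SE, n = 3 and 3; DESeq2 adjusted p = 0.00228). mt-Co2 had a log2 fold change of 0.95 ± 0.21, mt-Co1 of 0.90 ± 0.22 and mt-Cytb, of complex III, of 0.83 ± 0.20. Without C572 mt-Co3 had a log2 fold change of 0.83 and a DESeq2 adjusted p of 0.0700. With the length trend removed mt-Co3 had 0.60 (DESeq2 adjusted p = 0.248), mt-Co2 0.46 and mt-Co1 0.84. For each of these 4 genes C572 was the highest of the 6 mice and C575 the lowest of the C57-En1+/- mice. Reads of mitochondrial genes can also match their nuclear copies, so these values are uncertain to that extent. Ndufa1, an X-linked accessory subunit of complex I, had 3517, 3480 and 3703 against 6893, 9519 and 5763, a log2 fold change of 1.05 ± 0.26. The 3 C57 WT values lay close together and the C57-En1+/- values were spread more widely. With the length trend removed the log2 fold change of Ndufa1, whose effective length is 151 bases, was 0.25 (DESeq2 adjusted p = 0.751). Acot13, a thioesterase of mitochondria, had 1325, 1341 and 1388 against 2112, 2948 and 1890, with a log2 fold change of 0.78 that was 0.33 with the length trend removed.

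Other higher genes had roles outside the respiratory chain. Myl12a, a light chain of non-muscle myosin, had 937, 720 and 671 in C57 WT and 1566, 1969 and 1398 in C57-En1+/- (log2 fold change 1.08 ± 0.24). Cd93, a receptor of endothelial cells, had 239, 196 and 153 against 329, 556 and 499 (1.24 ± 0.32). Pmp22, a protein of peripheral myelin, had 445, 380 and 290 against 674, 11594 and 2240 (3.70 ± 0.83). For Pmp22 most of the difference came from C572, whose library held the motor neuron and myelin genes, and without C572 its log2 fold change was 1.97 with a DESeq2 adjusted p of 0.0985. Without C572 the log2 fold change of Cd93 was 1.08 and that of Myl12a 0.93, and neither was called by DESeq2. Myl12a was also not called by DESeq2 without C572S (adjusted p = 0.107) or without C5743 (adjusted p = 0.147), but was without each other library.

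Hopx, a homeodomain protein without DNA binding that is found in astrocytes, had 477, 164 and 319 against 610, 1698 and 862 (1.72 ± 0.45). Gpr3, a constitutively active receptor that raises cyclic AMP, had 189, 152 and 97.9 against 427, 611 and 228 (1.53 ± 0.39). Pglyrp1, a peptidoglycan recognition protein, had 271, 208 and 244 against 554, 843 and 557 (1.43 ± 0.36). C572 was the highest of the 6 mice for all 3. The log2 fold change of Hopx was 1.20 without C572, and that of Trim16, described next, went from 2.04 to 1.31. The remaining higher genes were Trim16, a ubiquitin ligase, at 218, 147 and 190 against 332, 1370 and 586, Psme4, an activator of the proteasome, at 516, 393 and 416 against 1026, 831 and 662, and Pakap, an anchor of protein kinase A, at 703, 922 and 578 against 1476, 1636 and 1460. For Psme4 the highest mouse was C5713, and for Pakap the 3 hemizygous values were nearly equal.

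For the lower genes the 3 hemizygous values were mostly close together. Klhl26, a kelch protein and likely adaptor of a ubiquitin ligase, had the smallest p of the lower genes, with 2384, 2131 and 2997 in C57 WT and 1205, 875 and 1286 in C57-En1+/- (log2 fold change -1.16 ± 0.22, DESeq2 adjusted p = 0.00400). The DESeq2 adjusted p of Klhl26 was 0.0733 without C572 and 0.00252 with the length trend removed. Keap1, the kelch adaptor that directs the degradation of the antioxidant regulator Nrf2, had 2310, 2406 and 2733 against 1449, 1171 and 1549 (-0.84 ± 0.19). Klhl11, another kelch protein, had 104, 231 and 216 against 12.8, 32.4 and 46.3 (-2.57 ± 0.59). All 3 are of the kelch family, which was looked at as a whole because of them, so they are part of its count, which is no independent evidence. Of 43 tested kelch-like genes, 7 (16.3%) were lower in all 3 C57-En1+/- mice and 0 higher, where all tested genes had 8.08% lower and 6.20% higher, and 30 of 43 had an estimate below 0 with a median of -0.27, where all tested genes had -0.05. The other 4 were Klhl12, Klhl32, Klhl34 and Klhl41, and their log2 fold changes ran from -3.09 to -0.36. With the length trend removed 4 were lower and 1 higher, and the median was -0.11.

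Pink1, the kinase that marks damaged mitochondria for removal and is mutated in an early-onset form of Parkinson disease, had 3606, 2841 and 3544 in C57 WT and 2174, 2076 and 1951 in C57-En1+/- mice. Its log2 fold change was -0.69 ± 0.15, the C57-En1+/- values lay within a narrow range, and DESeq2 gave an adjusted p of 0.0284. The DESeq2 adjusted p of Pink1 was 0.171 without C572 and 0.0530 with the length trend removed. Ubtf, a factor of ribosomal RNA transcription, had 2200, 2067 and 2023 against 1342, 1245 and 1416 (-0.65 ± 0.16). Kcna3, a voltage-gated potassium channel, had 555, 536 and 695 against 236, 181 and 280 (-1.36 ± 0.32). In all 3 genes the highest hemizygous value was well below the lowest wild type value.

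The maternally imprinted Mkrn3, a ubiquitin ligase that restrains the onset of puberty, had 2667, 2711 and 2990 against 1622, 1119 and 1674 (-0.92 ± 0.20). Hook2, a linker of dynein to its cargo, had 1364, 888 and 1397 against 535, 599 and 509 (-1.15 ± 0.25). Tpst2, which adds sulfate to tyrosines of secreted proteins, had 1343, 1341 and 1306 against 567, 696 and 673 (-1.04 ± 0.24). The 3 C57 WT values of Tpst2 were nearly equal, and so were those of Nfatc2, a calcium-regulated transcription factor, at 1068, 1007 and 1035 against 650, 627 and 562. The last 5 lower genes had log2 fold changes from -1.15 for Fpgs, which retains folates in the cell, to -0.71 for Ext2, an enzyme of heparan sulfate synthesis, with Iqce, Sart3 and the dystroglycan enzyme Pomgnt1 in between.

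The genes that DESeq2 called depended on single mice. Of its 49 higher genes, 36 had their highest value in C572, and in 11 the groups overlapped. Of its 25 lower genes 1 overlapped. Leaving out C572 left 5 higher and 6 lower, leaving out C5743 8 and 4, C572S 34 and 18, C5710 55 and 9, and C5713 62 and 20, whereas leaving out C575 gave 315 and 241. Serpina3c, a protease inhibitor, was called at 0, 0 and 0.206 against 0, 59.6 and 54.9. The adhesion protein Mcam, with 292, 179 and 371 in C57 WT and 345, 5546 and 653 in C57-En1+/- mice, was called on C572. Mdfic2 was called on 5.23 in C572 and 0 in the other 5, and Pax3, a factor of the dorsal neural tube, on 29.3 and 18.9 in C572 and C575. Vrtn was called lower on 19.9 in C572S and 1.31 in C5710. By contrast Angptl7, a secreted factor, had 10.5, 23.2 and 16.9 in C57 WT and was at 0 in all 3 C57-En1+/- mice, at least 15.4-fold lower against a floor of 3 reads over the group. Foxa2, a factor of the floor plate and of dopaminergic neurons, had 2.18, 302 and 16.5 against 0, 0 and 0, at least 97.8-fold lower, most of it from C572S. Cog8, of the Golgi, had 1658, 1711 and 1772 against 1122, 1025 and 1147 (-0.64 ± 0.16), with narrow ranges in both groups.

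Of the 74 genes that DESeq2 called, 2 were called again in each of the 6 fits that left out 1 C57 library, and neither codes for a protein. Gm20463, a long non-coding RNA on chromosome 17 from 34820063 to 34822575, had 125, 108 and 92.7 in C57 WT and 364, 355 and 261 in C57-En1+/- (log2 fold change 1.59 ± 0.30; DESeq2 adjusted p = 6.55e-05). The pseudogene Rpl37rt on chromosome 5 (ENSMUSG00000072692) had 0 in all 3 C57 WT and 149, 82.6 and 62.6 in C57-En1+/- mice, at least 293-fold higher. In OF1 WT mice the same pseudogene had 68.4, 147 and 0, and Gm20463 had 321, 421 and 352. The effective lengths were 117 bases for Gm20463 and 76.9 for Rpl37rt, within the class of short transcripts that had higher estimates. Rpl37rt resembles other ribosomal protein copies, and how reads were divided among them was not tested. For both genes the C57-En1+/- values lay nearer to OF1 WT than to C57 WT in most mice. In OF1-En1+/- mice Rpl37rt had 89.8, 41.9 and 68.7, and Gm20463 had 188, 167 and 223. Gm20463 was thus lower in hemizygous than in wild type OF1 mice (log2 fold change -0.92 ± 0.30), opposite to its direction on C57.

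Genes whose level differs by strain check the strain label. Of 92 genes at least 10 times higher in every OF1 WT than in every C57 WT library, 89 were at the C57 level in all 3 C57-En1+/- mice, and 0 were at the OF1 level. Gm15459 had 51222 to 65611 in OF1 WT, 24.9 to 71.4 in C57 WT and 20.6 to 33.4 in C57-En1+/- mice. Of 25 genes higher in C57 WT, 21 were at the C57 level in all 3, among them Rps2 at 219 to 281 in OF1 WT, 7410 to 9054 in C57 WT and 8432 to 9553 in C57-En1+/- mice. By these genes all 3 hemizygous libraries lay with the C57 strain.

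Within 10 Mb of En1 on chromosome 1, where a backcrossed line can keep the donor's DNA, 58 other genes were tested. In 5 all 3 C57-En1+/- mice lay higher and in 5 lower, together 17.2% of the 58 where all tested genes had 14.3%, and DESeq2 called 0 of them. The nearest were Dbi, which codes for an acyl-CoA binding protein, and 3110009E18Rik, at -0.489 and -0.482 Mb from En1, and Ccdc93 at 0.829 Mb. Dbi had 18088, 13275 and 12817 against 20163, 36234 and 18507 (log2 fold change 0.76 ± 0.36). The share of genes near En1 whose groups did not overlap was close to that of the whole genome.

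The lists of the respiratory chain and the ribosome each had a larger share of genes above C57 WT than all tested genes had. Of 13 proteins encoded in mitochondria 11 were higher in all 3 C57-En1+/- mice and 0 lower, and the median log2 fold change was 0.83. Of 36 nuclear subunits of complex I 14 were higher and 0 lower (median 0.62), and of 35 subunits of complexes III to V 13 and 0 (median 0.71). Of 53 cytosolic ribosomal proteins 43 were higher and 0 lower (median 0.63), where 6.20% of all tested genes were higher. Rps28 had 1444, 968 and 1213 against 2291, 3250 and 2338 (1.12 ± 0.36), and Rps29 had 3439, 2677 and 2928 against 5199, 7532 and 5465 (1.01 ± 0.32). In the small subunit of the mitochondrial ribosome 9 of 29 genes were higher and 1 lower, with a median of 0.25. No gene of these lists was called by edgeR, and DESeq2 called 4 of the mitochondrially encoded genes and 1 of complex I.

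Many of these genes have short transcripts, and short transcripts as a class had higher estimates. The median effective length, the part of a transcript in which a fragment can start, was 486 bases for the mitochondrially encoded proteins, 386 for complex I and 321 for complexes III to V, where all tested genes had 2133. Not every member is short, with 1247 bases for mt-Co1 and a median of 630 for the small mitochondrial ribosomal subunit. Among protein-coding genes with a mean of at least 50, the 503 genes of up to 500 bases had a median log2 fold change of 0.54, and 43.5% of them were higher in all 3 C57-En1+/- mice and 0.398% lower. The median was 0.24 from 500 to 1000 bases, 0.06 from 1000 to 1500, -0.15 from 2000 to 3000, -0.21 from 3000 to 4000, -0.20 from 4000 to 6000 and -0.04 over 6000 bases. The 451 tested genes of up to 500 bases outside the ribosomal and respiratory families had a median of 0.42, and 123 of them were higher in all 3 and 5 lower. Short genes of neither family thus lay above the median of all genes too.

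**Figure D3:**
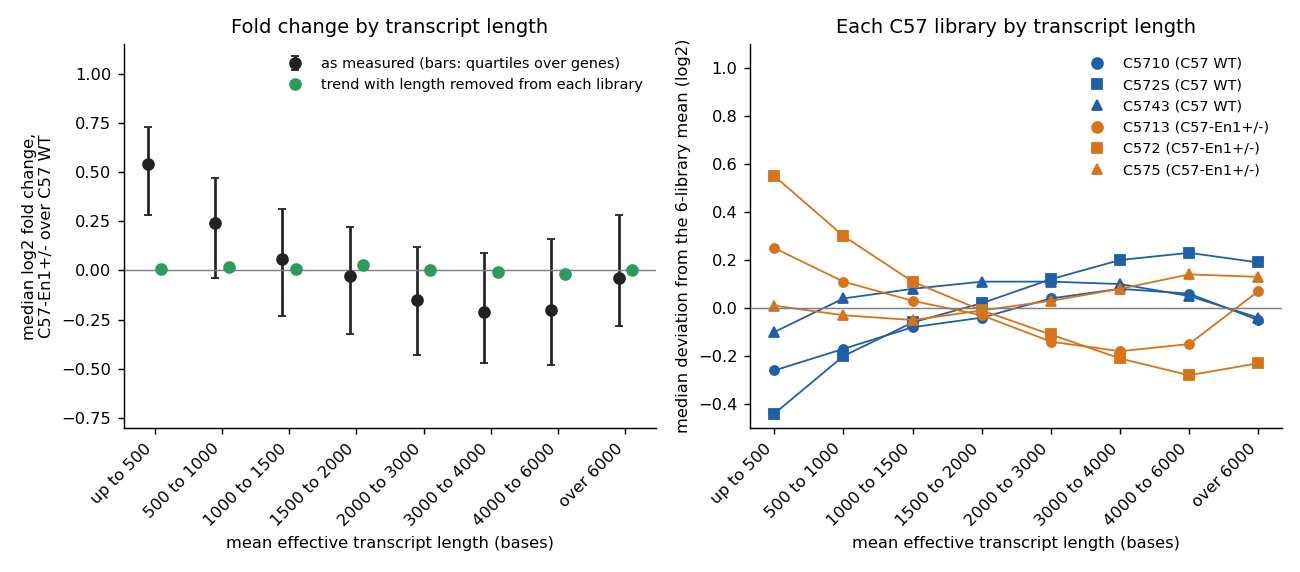
Left, median log2 fold change of C57-En1+/- over C57 WT in 8 classes of effective transcript length, as measured with quartiles over genes (black) and with the trend of each library removed (green); right, the median deviation of each C57 library from the mean of the 6 in the same classes. Short transcripts lie highest in C572 and C5713 and lowest in C572S and C5710, with C575 and C5743 in between.

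The trend with length differed among libraries of the same group. For genes of up to 500 bases the median deviation from the mean of the 6 libraries was -0.26, -0.44 and -0.10 in C57 WT and 0.25, 0.55 and 0.01 in C57-En1+/- mice. C575 thus lay nearer to C5743, a C57 WT mouse, than to C572. In the OF1 mice the same class had a median log2 fold change of -0.25 between the genotypes. After the trend with length was taken out of each library, the medians of the lists were 0.42 for the mitochondrially encoded proteins, 0.17 for complex I, 0.18 for complexes III to V, 0.16 for the cytosolic ribosomal proteins and -0.02 for the small mitochondrial ribosomal subunit. The groups then did not overlap in 6 of 13, 5 of 36, 5 of 35, 21 of 53 and 3 of 29 genes that were higher. In the same order 0, 1, 1, 0 and 3 genes were lower. Of all genes 5.73% were higher and 7.26% lower on that scale. This correction was chosen after the trend was seen, and it takes out any part of a real difference that follows length. What makes short transcripts higher in these libraries was not tested.

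No blood or vessel gene passed by edgeR, and the estimates of endothelial genes were mostly above 0. Of 20 endothelial genes 19 had an estimate above 0, 5 were higher in all 3 mice and 0 lower, where all tested genes had 6.20% and 8.08%, and the median of 0.51 was 0.43 without C572. Ly6c1, a surface protein of brain endothelium, had 512, 271 and 440 against 912, 1513 and 1104 (1.53 ± 0.45). Esam, an adhesion molecule of endothelial junctions, had 935, 668 and 1048 against 1462, 2068 and 1991 (1.06 ± 0.36). The mice of the groups did not overlap for either gene, and C57-En1+/- mouse C5713 was the lowest of its group for both. Slc2a1, the glucose transporter of the blood-brain barrier, had 2102, 1338 and 1474 against 2190, 3359 and 2251, with 1 C57 WT mouse near the lowest C57-En1+/- mouse.

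Pericyte and smooth muscle genes were mixed, with 5 of 19 mural and fibroblast genes (26.3%) higher in all 3 and 1 (5.26%) lower. All tested genes had 6.20% higher and 8.08% lower. The median of the list was 0.33, and it was 0.08 without C572 and 0.01 without C572S. Rgs5, a pericyte marker, had 856, 1127 and 1329 against 1666, 2334 and 2522 (0.98 ± 0.36), and Vtn, which pericytes secrete, 1193, 502 and 803 against 1342, 2336 and 1667. Of the 6 red blood cell genes tested, 4 (66.7%) were higher in all 3 C57-En1+/- mice, where 6.20% of all tested genes were. Of the 6, 0 had an unadjusted p under 0.05 by edgeR. The alpha globin Hba-a2 had 5789, 5550 and 6958 against 9784, 10741 and 20670 (1.17 ± 0.73), and the beta globin Hbb-bs 3629, 3619 and 4318 against 7444, 7694 and 14390 (1.35 ± 0.72). C575 had the highest globin values, and reads may be shared among the near-identical globin copies. Globin transcripts are short, at a median of 403 bases for the list, and the median of 1.21 was 0.84 with the length trend removed.

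**Figure D4:**
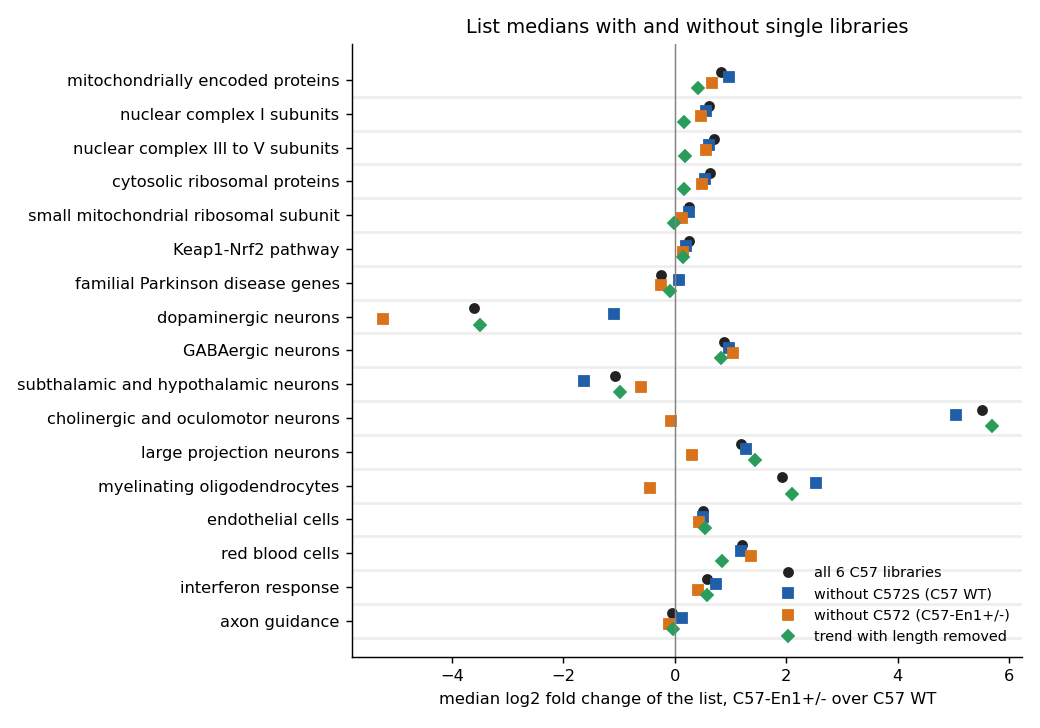
Median log2 fold change of C57-En1+/- over C57 WT for 17 gene lists, with all 6 C57 libraries (black), without C572S (blue), without C572 (orange) and with the trend with transcript length removed (green). Dopaminergic genes move most without C572S, cholinergic, large projection neuron and myelin genes without C572, and respiratory and ribosomal genes with the length trend removed.

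Keap1 holds the transcription factor Nrf2 (gene Nfe2l2) in the cytosol and has it degraded by a Cul3 ubiquitin ligase, and Nrf2 switches on antioxidant and detoxifying genes through the antioxidant response element. Of 33 genes of this pathway 31 were tested, of which 5 were higher in all 3 C57-En1+/- mice and 5 lower (16.1% each, where all tested genes had 6.20% and 8.08%), and the median log2 fold change was 0.26. That median was 0.15 without C572 and 0.14 with the length trend removed, when 6 were higher and 2 lower. At an unadjusted p under 0.05 by edgeR 7 were higher and 1, Keap1, lower, where 4.15% of all tested genes were higher and 4.42% lower. Nfe2l2 had 345, 311 and 217 in C57 WT and 396, 579 and 408 in C57-En1+/- mice (0.66, unadjusted p = 0.0473 by edgeR). Beside Keap1, the other members of the inhibitory complex, Cul3 and Rbx1, overlapped between the groups, at log2 fold changes of 0.31 and 0.33.

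**Figure D5:**
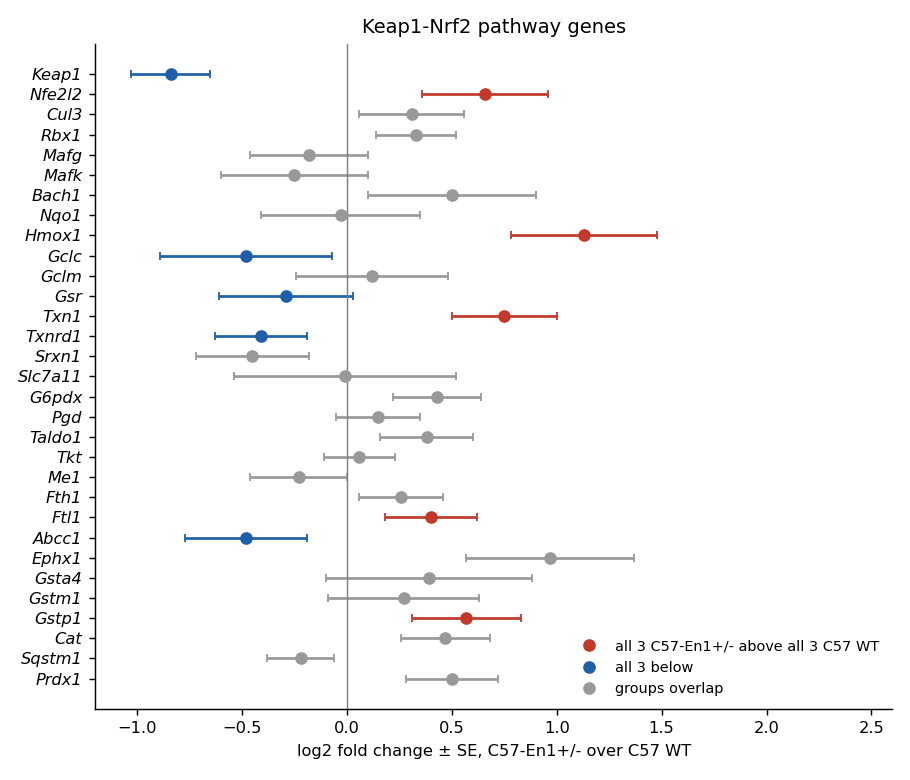
Log2 fold change of C57-En1+/- over C57 WT with its SE for the 31 tested genes of the Keap1-Nrf2 pathway; red marks genes higher and blue genes lower in all 3 C57-En1+/- mice, grey marks overlap. Hmox1 and Ephx1 lie furthest to the right and Keap1 furthest to the left.

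Among the targets of Nrf2, Hmox1, the heme oxygenase, had 120, 170 and 193 against 302, 502 and 255 (1.13 ± 0.35). Txn1, the thioredoxin that reduces protein disulfides, had 5806, 5353 and 6949 against 9455, 13402 and 7702 (0.75 ± 0.25). Gstp1 and Ftl1, a glutathione transferase and the light chain of ferritin, were the other 2 that were higher in all 3 beside Nfe2l2. Below C57 WT in all 3 mice, but with an unadjusted p over 0.05, Txnrd1, which regenerates thioredoxin, had 2663, 2790 and 2586 against 1678, 2187 and 2202 (-0.41), and Gclc and Gsr, of glutathione synthesis and recycling, had log2 fold changes of -0.48 and -0.29. Nqo1, often used as a readout of Nrf2, had 219, 361 and 302 against 208, 378 and 279, with no difference beyond the spread. DESeq2 called Keap1 and no other gene of the list.

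The promoters of the pathway genes were read for the core of the antioxidant response element, TGACNNNGC, on both strands. RefSeq windows from 250 bases before to 50 after a gene's start (GRCm38.p6) were given for 28 of the 33 genes, and 11 of the 28 (39.3%) held it, as did 14% of all 27025 genes with a window. Nfe2l2 and Txnrd1 are shown because they were the 2 genes with a match among those whose groups did not overlap, and they lay in opposite directions, Nfe2l2 higher and Txnrd1 lower. Capitals mark the match. The windows are chr2:75704614-75704913 on the minus strand and chr10:82858956-82859255 on the plus strand.
Nfe2l2: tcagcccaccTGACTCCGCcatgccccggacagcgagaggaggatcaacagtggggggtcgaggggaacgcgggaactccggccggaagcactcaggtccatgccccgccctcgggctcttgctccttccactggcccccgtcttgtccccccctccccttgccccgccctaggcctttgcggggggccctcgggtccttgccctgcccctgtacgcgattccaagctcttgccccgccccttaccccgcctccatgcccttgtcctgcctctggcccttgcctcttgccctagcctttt
Txnrd1: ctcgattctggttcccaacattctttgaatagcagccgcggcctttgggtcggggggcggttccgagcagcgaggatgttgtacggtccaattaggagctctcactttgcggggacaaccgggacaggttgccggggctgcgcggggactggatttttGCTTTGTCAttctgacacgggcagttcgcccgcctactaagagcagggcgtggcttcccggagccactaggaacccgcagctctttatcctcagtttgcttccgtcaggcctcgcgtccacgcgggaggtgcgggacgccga
The core of the Engrailed homeodomain site, TAATTA, was in 0 of the 21 named higher and lower genes with a window and in 6.12% of all genes. A match or its absence in these windows says nothing of binding.

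Of 18 genes of familial Parkinson disease, 1 (5.56%) was higher and 3 (16.7%) lower in all 3 C57-En1+/- mice, where all tested genes had 6.20% and 8.08%, and 0 were higher and 1 lower with the length trend removed. The median of -0.24 was 0.07 without C572S. The lower ones were Pink1, given above, Atp13a2, a lysosomal polyamine exporter, at 6412, 7809 and 10222 against 6305, 4439 and 5681 (-0.57 ± 0.21), and Fbxo7, which acts with the Pink1 pathway. Park7, the redox sensor DJ-1, was the higher one, at 6381, 7198 and 7970 against 9073, 12422 and 8076 (0.46 ± 0.22), and its effective length was 605 bases. Atp13a2 in C5713 lay just under the lowest C57 WT value.

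Among the other lists, the share of genes that separated the groups varied. In axon guidance 1 of 46 was higher and 3 lower, at a median of -0.05, and the lower ones included the repellent Slit1, at 1532, 1726 and 1442 against 762, 252 and 786 (-1.38 ± 0.45), and the ephrin receptor Epha5, at 3852, 7329 and 5776 against 2978, 2645 and 2768 (-1.01 ± 0.33). These counts are below the background of 6.20% higher and near that of 8.08% lower. Of 24 genes of dividing cells 5 (20.8%) were higher, where all tested genes had 6.20%, and 0 lower (median 0.20 and 0.04 without C572). Among the higher ones was the condensin subunit Smc4, at 257, 399 and 190 against 522, 516 and 485 (0.85 ± 0.30). Its partner Smc2 overlapped, at 409, 360 and 370 against 252, 416 and 414. Neuropeptides had 0 higher and 1 lower of 20 tested, and progenitor genes 0 and 0 of 12.

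Of the immune lists, 2 of 16 genes of MHC class I and 2 of 19 of the interferon response were higher in all 3 C57-En1+/- mice, with 0 and 1 lower, or 12.5% and 10.5% where all tested genes had 6.20% higher. The estimates of MHC class I genes were above 0 for 7 and below for 9, with a median of -0.08, and H2-Q4 (-3.35) and Tap1 (-1.23) had an unadjusted p under 0.05 by edgeR on the lower side. B2m, the constant chain of MHC class I, had 1026, 1139 and 776 against 1836, 4164 and 1484 (1.35 ± 0.40), and Ifitm3, an antiviral membrane protein, 197, 130 and 194 against 566, 505 and 250 (1.34 ± 0.41). Among microglial genes (15 tested, median 0.36 and 0.03 without C572, 2 higher) the defining markers Cx3cr1 and P2ry12 overlapped for the first and were higher for the second, at 623, 585 and 525 against 800, 769 and 638. Astrocytes (18 tested, median 0.21 and -0.05 without C572) and oligodendrocyte precursors (12 tested, median 0.09) had 2 and 1 genes higher, the astrocyte genes including the glutamate transporter Slc1a2 at 2705, 4611 and 2436 against 5550, 7613 and 5171. Cholesterol synthesis had 2 higher and 1 lower of 22, the lower one being its feedback regulator Insig1, at 2042, 3286 and 2456 against 1467, 1204 and 1643 (-0.85 ± 0.25). The immediate early and stress genes had 2 and 2 of 22, with Jund at 592, 312 and 328 against 173, 116 and 274. None of these genes was called by edgeR or DESeq2.

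Whether the genotype acted differently on the OF1 strain was tested by the interaction of genotype and strain. No gene passed by edgeR (0 of 18017, smallest adjusted p = 0.614, 1274 at an unadjusted p under 0.05), and DESeq2 called 42. Of the 30 named genes, 20 had the same sign of estimate in OF1 mice and 13 also did not overlap there in that direction. The shares of all tested genes that did so in OF1 mice were not computed, so these counts do not show agreement between strains. At an unadjusted interaction p under 0.05 by edgeR there were 17 of the 30. In OF1-En1+/- over OF1 WT, Keap1 had a log2 fold change of -0.46 ± 0.19, Klhl26 of -0.62 ± 0.22 and Kcna3 of -1.02 ± 0.32, and mt-Co3 had -0.03 ± 0.20 and Ndufa1 -0.37 ± 0.26. The 30 were chosen on the C57 contrast, so their interaction, with adjusted p of no less than 0.691, is not independent of that choice.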

How the data were processed

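RNA of laser-microdissected substantia nigra pars compacta was amplified with SMART-Seq v4 and sequenced without strand. The authors quantified transcripts with Salmon against GENCODE on GRCm39, and the deposited files hold per transcript an estimated count, an effective length and a TPM value, which is scaled to the same total in every library. Estimated counts were summed per gene through GENCODE M39, which matched 139555 of 140790 transcripts (99.1%), and rounded. TPM values were not used for tests. Libraries of a group differed far beyond counting error, with a chi-square per gene of 86.4 to 579.

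All 12 libraries were fitted with 1 mean per group by edgeR 4.0.16 (quasi-likelihood test, robust, TMM) in R 4.3.3, over genes whose normalized counts averaged 10 or more. Adjusted p-values are Benjamini-Hochberg over the 18017 genes, with a threshold of 0.05. The earlier quasi-likelihood method of edgeR was used in place of the newer one, which was first intended, because the newer gave too many small p-values on simulated data in which no gene changed. The change was made after the data had been seen, and both methods call 0 genes. DESeq2 1.42.0 and limma 3.58.1 are alternatives. The SE is the log2 fold change over the root of F.

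Named genes were the 15 higher and 15 lower protein-coding genes of smallest p among those with no overlap and a mean of at least 50, the targeted and sex genes, the first DESeq2 calls, and members of the gene lists. Members and lists were chosen with earlier results of these data known. The kelch-like list, Tph2 and Slc6a4 were chosen after their values were seen. A group at 0 in all libraries was set to a floor of 3 reads over the group. p-values weigh a difference between group means against the spread between mice within the groups. Settings tried are listed under the dependence on processing.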

Additional observations from a re-analysis of the deposited data

How the results depend on the processing

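By edgeR, the genes called higher numbered 0 to 1 and those called lower 0 when each C57 library was left out in turn, and 0 under every other edgeR setting and limma voom. The 1 call was Gm13092 without C572S. The newer quasi-likelihood method called 0 and had 2091 genes at an unadjusted p under 0.05, against 1544. DESeq2 called 49 higher and 25 lower on the same counts, 36 and 17 in the 6 C57 samples alone, and 41 and 24 with length offsets. Chosen after seeing the data, it called 7 and 6 without C572S and C572, 21 and 7 with libraries thinned to the smallest C57 depth (3 OF1 libraries were already below it), and 23 and 23 with the trend with transcript length removed. Leaving out 1 library gave 5 and 6 without C572, 8 and 4 without C5743, and 315 and 241 without C575, and the cause was not tested. Without C575, 60 of the 74 genes were called again, and without C572, 6. In the 6 C57 samples alone 24 of the 74 were called again, with length offsets 53, and with the length trend removed 39.

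The number of genes not overlapping, higher in C57-En1+/-, ran from 979 to 1344, and that of genes not overlapping, lower in C57-En1+/-, from 1235 to 1992 (without a filter on low counts). The estimates of the 30 genes named first kept their direction under all settings run. They were chosen as genes whose groups did not overlap, which largely fixes their direction when libraries are left out. The kept direction is therefore a description and no independent evidence. Smc2 was at -0.07 and reversed to 1.42 with length offsets in both edgeR and DESeq2, to 0.06 without C5710 and 0.17 without C5713 by DESeq2, to 0.08 and 0.09 thinned, and to 0.13 and 0.14 with the length trend removed. By edgeR without 1 library it ranged from -0.19 to 0.13. The interaction called 0 of the named genes by edgeR and 1 by DESeq2. The median of the choroid and ependymal list went from -1.10 to 0.92 without C5710. No paired analysis was possible because the replicate numbers were given in order of listing and do not tie mice of different groups. Depth was lower in every C57-En1+/- than in every C57 WT library, so genes with few reads were measured less precisely in the former.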
